A study of Mus musculus with 24 samples.

Results

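The enzymes of the urea cycle and of glutamine turnover were followed in liver, cerebellum and brainstem of Atxn2 Knock-In mice. Every probe set that the platform annotation assigns to Nags, Cps1, Otc, Slc25a15, Ass1, Asl, Arg1, Glul or Gls2 was taken. Probe sets were found for 7 of these 9 genes, of 17097 genes named on the array, by 10 probe sets out of 45037 tested. Glul, the glutamine synthetase, and Gls2, the liver glutaminase, had no probe set under their names in the annotation used here and were not analysed here. Nags, Cps1, Asl and Arg1 had 1 probe set each, and Otc, Slc25a15 and Ass1 had 2, of which the one with the higher mean over all arrays is called the leading probe set.

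The Knock-In mice, named CAG42, are homozygous for an Atxn2 allele in which 42 CAG repeats stand in place of the single CAG of the mouse gene, under the endogenous promoter. The WT mice are wild type littermates from matings of heterozygotes, and both genotypes had been backcrossed to C57BL/6 for at least 8 generations. All animals were 18 months old. The 24 Affymetrix arrays cover 3 tissues, each with 4 arrays per genotype. The sex of the mice and the meaning of the replicate numbers are not given in the sources used here, so p-values measure the spread between these arrays. Values are RMA levels on the log2 scale, on which a difference of 1 is a doubling.

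The urea cycle turns ammonia from amino acid breakdown into urea, and the complete cycle runs in periportal hepatocytes. NAGS makes N-acetylglutamate, the activator without which CPS1 cannot form carbamoyl phosphate from ammonia in the mitochondrion. OTC joins carbamoyl phosphate to ornithine, the carrier SLC25A15 (ORC1) exchanges ornithine against citrulline across the inner membrane, and ASS1, ASL and ARG1 complete the cycle in the cytosol. In brain, where the complete cycle is not found, ASS1 and ASL recycle citrulline to arginine, and glutamine synthetase of astrocytes takes up ammonia.

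Promoters are shown because all members that were measured stood higher in liver than in brain, so that the stretches around their starts can be set side by side. Sequences of 4 of the 7 measured genes were matched in RefSeq (build GRCm38.p6), Slc25a15 with 2 starts. Each runs from 250 bases before to 50 bases after the start, on the strand of the gene. Capitals mark matches on either strand to the GC box GGGCGG. They lie at chr11:102145263-102145562 (plus strand, Nags), chrX:10252055-10252354 (plus strand, Otc), chr8:22398228-22398527 and chr8:22398572-22398871 (minus strand, first and second Slc25a15 entry) and chr2:31470020-31470319 (plus strand, Ass1).
Nags: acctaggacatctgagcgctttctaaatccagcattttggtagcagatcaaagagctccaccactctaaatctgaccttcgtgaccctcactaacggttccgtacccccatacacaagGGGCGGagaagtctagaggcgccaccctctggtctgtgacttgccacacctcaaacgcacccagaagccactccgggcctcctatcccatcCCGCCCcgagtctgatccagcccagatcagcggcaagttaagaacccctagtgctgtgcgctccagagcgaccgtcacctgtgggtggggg
Otc: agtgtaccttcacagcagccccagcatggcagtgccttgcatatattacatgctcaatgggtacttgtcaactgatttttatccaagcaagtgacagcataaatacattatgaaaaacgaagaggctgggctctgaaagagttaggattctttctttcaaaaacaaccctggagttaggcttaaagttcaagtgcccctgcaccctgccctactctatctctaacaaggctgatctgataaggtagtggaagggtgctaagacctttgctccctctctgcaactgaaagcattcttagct
Slc25a15, first entry: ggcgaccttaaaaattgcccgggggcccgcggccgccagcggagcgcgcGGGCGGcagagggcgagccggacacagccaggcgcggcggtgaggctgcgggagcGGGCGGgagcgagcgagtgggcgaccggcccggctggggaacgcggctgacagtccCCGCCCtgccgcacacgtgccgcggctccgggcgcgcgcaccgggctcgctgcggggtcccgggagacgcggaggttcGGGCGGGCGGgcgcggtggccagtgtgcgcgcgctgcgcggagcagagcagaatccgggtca
Slc25a15, second entry: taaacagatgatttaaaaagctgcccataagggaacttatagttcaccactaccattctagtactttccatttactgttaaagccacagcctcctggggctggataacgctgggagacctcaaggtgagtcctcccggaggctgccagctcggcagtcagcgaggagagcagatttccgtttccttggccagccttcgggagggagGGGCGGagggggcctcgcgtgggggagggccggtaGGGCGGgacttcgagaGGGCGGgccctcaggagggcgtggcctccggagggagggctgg
Ass1: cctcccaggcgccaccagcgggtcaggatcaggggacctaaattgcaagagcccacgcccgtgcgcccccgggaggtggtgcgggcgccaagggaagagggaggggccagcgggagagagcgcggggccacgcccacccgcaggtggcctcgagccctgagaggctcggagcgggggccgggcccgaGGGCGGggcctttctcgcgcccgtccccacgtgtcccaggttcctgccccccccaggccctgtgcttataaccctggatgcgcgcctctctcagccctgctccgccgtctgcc

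The GC box was present in 4 of the 5 member promoters and in 35.7% of all 32851 promoters of this length. In the first Slc25a15 entry 2 of its 5 matches overlap each other. The Otc promoter had no match and a GC content of 44.3%, below the 57.7% of Nags, 74.0% of Ass1 and the 79.0% and 60.7% of the Slc25a15 entries, while the median of all promoters was 52.7%. Searched on both strands, the TATA box TATAAA, the CCAAT box CCAAT, the HNF4 site CAAAGTCCA, the forkhead site TGTTTAC, the C/EBP site TTGCNNAA, the HNF1 core GTTAAT and the cAMP response element TGACGTCA matched 0 of the 5. Of all promoters, these motifs were held by 13.6%, 37.4%, 0.475%, 3.65%, 10.8%, 7.1% and 1.79%, in the same order. A missing match says only that these letters are not in this window.

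Arrays of 1 group correlated with r between 0.992 and 0.996 in both brain regions, between 0.986 and 0.994 in CAG42 liver and between 0.954 and 0.989 in WT liver, where replicate 1 stood apart with a mean r of 0.965 to its group. Albumin averaged 13.72 in CAG42 and 13.70 in WT livers, and its group means in brain lay between 2.96 and 3.14, so the tissue labels fitted this hepatocyte marker. The cerebellar markers stood higher in cerebellum than in brainstem for 4 of 4 Purkinje cell genes and 5 of 5 granule cell genes, and 6 of 6 brainstem neuron markers stood lower, all called.

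To learn how far the expression of the cycle is restricted to liver, its genes were compared between the tissues over both genotypes. All 10 probe sets were higher in liver than in cerebellum and than in brainstem, and in every case the 8 liver arrays lay above all 8 arrays of the brain region. A call means an adjusted p under 0.05 (limma, Benjamini-Hochberg over all probe sets). Over all probe sets, 40.0% were called higher in liver than in cerebellum and 37.1% higher in liver than in brainstem, so that a call by itself is common. The median difference of the 10 probe sets was 5.29 against cerebellum and 4.88 against brainstem, while the medians of all probe sets were -0.08 and -0.16. Where a brain signal lay below the median of its own array, as for Nags, Cps1, Otc, Arg1 and the second probe sets, a low level and background cannot be separated without detection calls. For these the difference is that between 2 signals and no measure of the fold in transcript. Since whole tissue was measured, fewer cells of a type and less RNA per cell cannot be told apart.

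The mitochondrial entry of the cycle was a liver signal. Cps1, the first committed enzyme, had 12.72, 12.82 and 12.98 as lowest, median and highest level over the liver arrays, against 2.94, 3.43 and 3.99 in cerebellum and 3.23, 3.34 and 3.97 in brainstem. The liver signal was higher than that of cerebellum (adjusted p = 4.39e-27) and of brainstem (adjusted p = 4.22e-27, limma), by 9.41 in both comparisons. All brain values of Cps1 lay below the median of their own array.

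Otc, which forms citrulline, ranged from 11.75 over a median of 11.84 to 12.06 in liver, from 2.67 over 2.81 to 2.94 in cerebellum and from 2.60 over 2.76 to 2.86 in brainstem. The signals of its leading probe set lay 9.04 apart between liver and cerebellum and 9.12 between liver and brainstem, and those of its second probe set 4.68 and 4.39. Both Otc probe sets were dim on all brain arrays, so they give liver above brain and not by how much.

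Nags, which supplies the activator of CPS1, ranged from 8.42 over a median of 8.54 to 8.66 in liver, from 2.99 over 3.12 to 3.26 in cerebellum and from 2.91 over 3.27 to 3.32 in brainstem. The signals lay 5.43 apart between liver and cerebellum and 5.34 between liver and brainstem. Nags thus belonged with Cps1, Otc and Arg1 to the 4 genes that lay below the array median on every brain array.

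Slc25a15, the ornithine carrier, was present in all 3 tissues by its leading probe set, which lay above the array median on every array. It had a lowest, median and highest level of 10.32, 10.61 and 10.85 in liver, of 5.89, 6.17 and 6.41 in cerebellum and of 7.07, 7.27 and 7.54 in brainstem. Liver exceeded cerebellum by 4.46 ± 0.09 (SE, 22.0-fold) and brainstem by 3.34 ± 0.09 (10.1-fold). The second probe set was dim in brain and gave 3.11 and 3.18.

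Of the cytosolic enzymes, Ass1, which condenses citrulline with aspartate, showed the strongest contrast between the brain regions among the 10 probe sets. Its leading probe set ranged from 11.92 over a median of 12.19 to 12.49 in liver, from 4.70 over 5.04 to 5.18 in cerebellum and from 7.11 over 7.23 to 7.30 in brainstem. Liver stood above cerebellum by 7.23 ± 0.07 (SE) and above brainstem by 4.99 ± 0.07 (31.8-fold). In cerebellum the means were 5.09 in CAG42 and 4.87 in WT mice, little above the array medians of 4.42 to 4.54. Of the 4 WT cerebella 3 lay at or under 5. Background may limit the cerebellar level, so no fold is given for it. The 3 tissues did not overlap on any array.

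Asl, which splits argininosuccinate into arginine and fumarate, had 11.12, 11.50 and 11.68 as lowest, median and highest level in liver, 6.18, 6.28 and 6.49 in cerebellum and 6.52, 6.68 and 6.77 in brainstem. Its differences were 5.15 ± 0.07 against cerebellum and 4.78 ± 0.07 against brainstem (SE), and it was above the array median on all brain arrays. Arg1, the hepatic arginase that releases urea, had 12.65, 12.76 and 12.91 in liver, 3.38, 3.68 and 4.15 in cerebellum and 2.97, 3.27 and 3.55 in brainstem. It was dim on every brain array, with its signals 9.08 apart between liver and cerebellum and 9.53 between liver and brainstem.

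**Figure D1:**
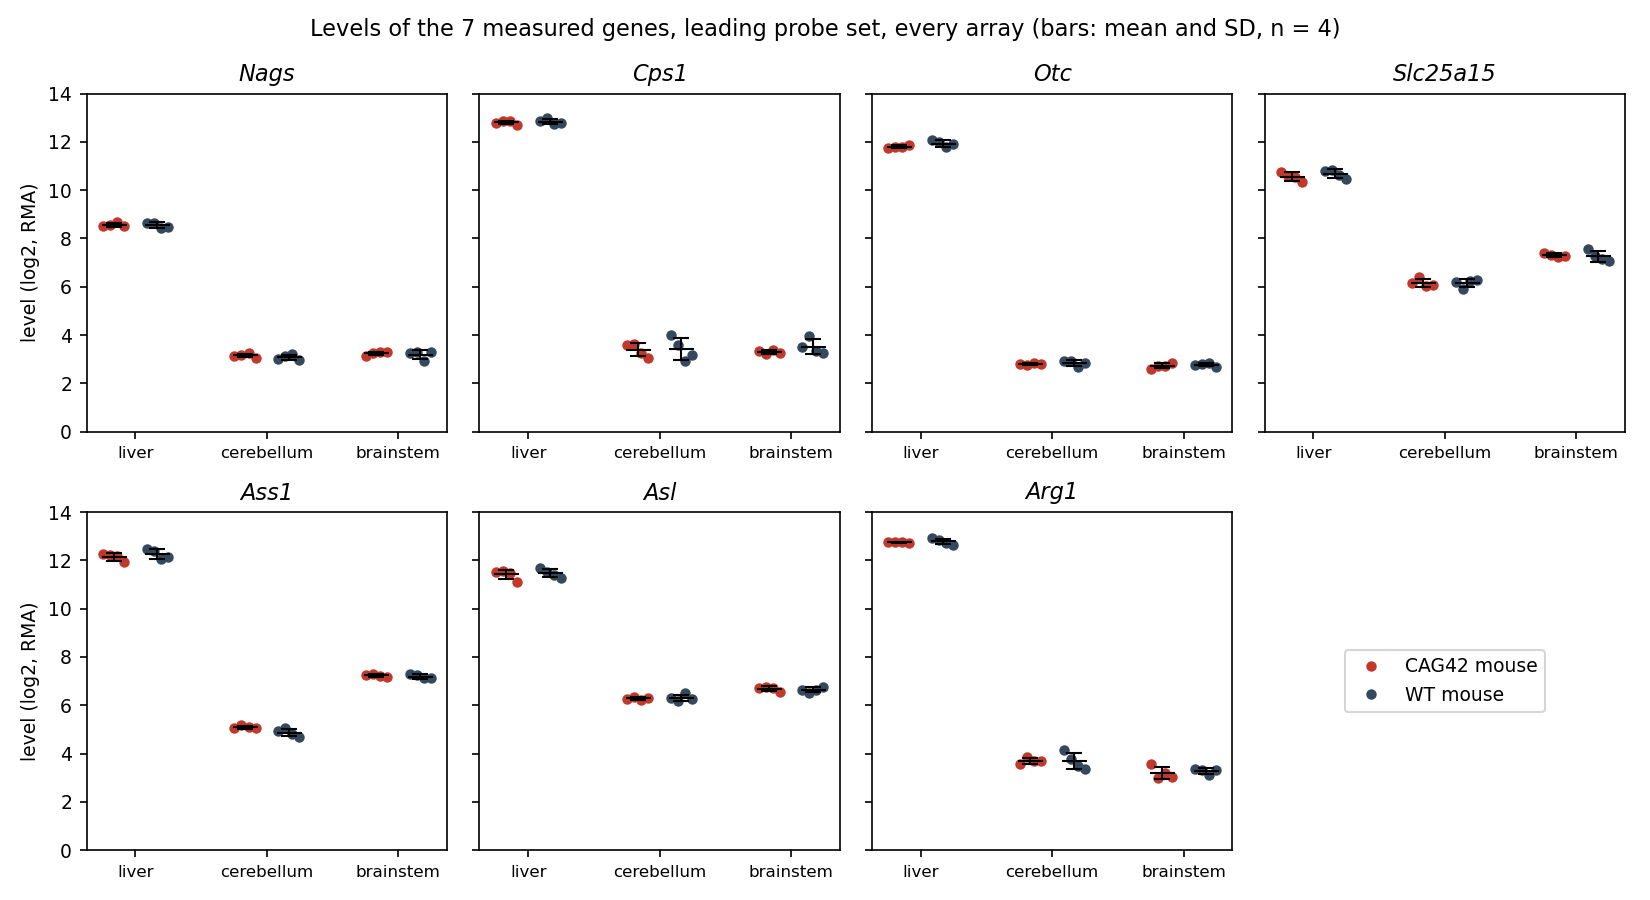
Level on the log2 scale (vertical axis) of the leading probe set of each of the 7 genes on all 24 arrays, by tissue and genotype, with mean and SD of 4 arrays per group as bars. Liver lies above both brain regions in every panel, and CAG42 and WT points overlap in each tissue. Ass1, Asl and Slc25a15 stay above the array median in brain, Ass1 only by little in cerebellum.

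**Figure D2:**
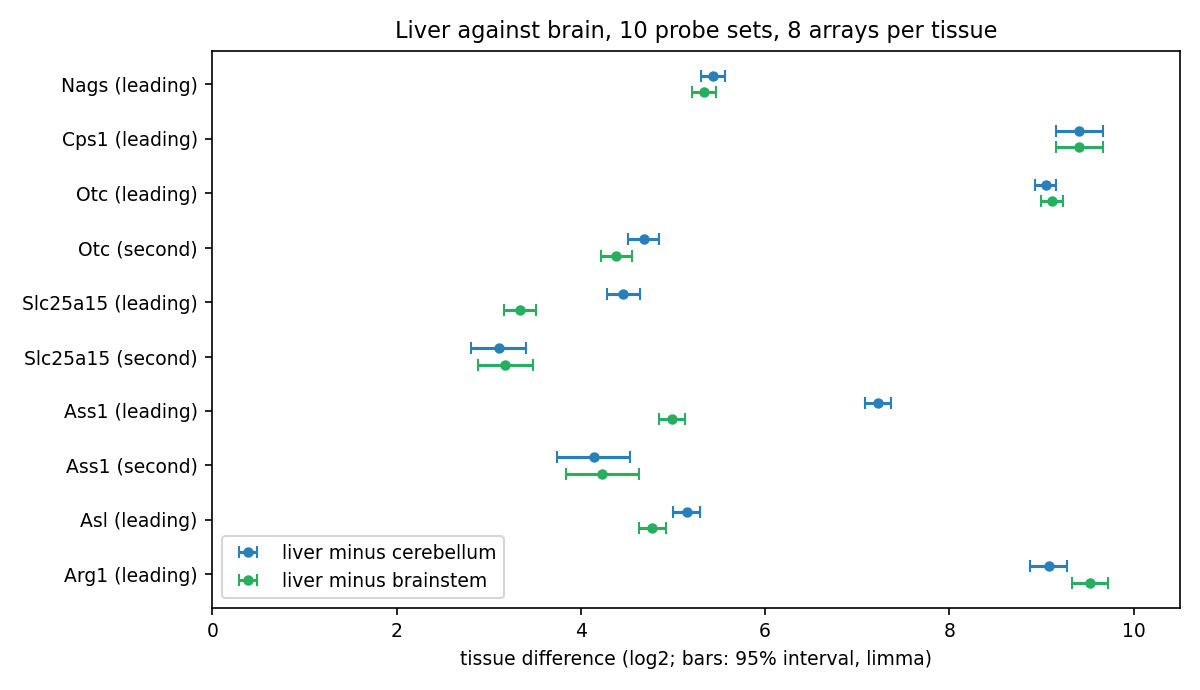
Difference between liver and each brain region on the log2 scale (horizontal axis) for the 10 probe sets, with 95% intervals. Differences run between 3.11 and 9.53, and the markers for cerebellum and brainstem lie farthest apart for the leading probe set of Ass1, at 7.23 and 4.99. Values of Nags, Cps1, Otc, Arg1 and the second probe sets rest on dim brain signals.

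The genes around the cycle were read by the leading probe set of each gene. The shares called higher in liver over all probe sets were 40.0% against cerebellum and 37.1% against brainstem. These shares include second probe sets and probe sets without a gene, so they are no like measure for the lists. In 2 lists there were many lower calls besides. Of 19 measured genes for transport and side branches (mitochondrial carriers, arginases, nitric oxide synthases and others), 10 were called higher and 7 lower in liver than in cerebellum, and 11 were called higher and 8 lower in liver than in brainstem. Of 23 measured genes of glutamine, glutamate and ammonia handling, 14 were called higher and 9 lower against cerebellum, and 13 higher and 9 lower against brainstem. The 20 measured genes of liver amino acid breakdown were called higher in liver in both comparisons without exception, with medians of 7.63 and 8.07. They were listed as liver genes, so this largely follows from the choice. Of 13 regulators of urea cycle transcription 11 were called higher in liver in each comparison, with 2 called lower against cerebellum and 1 against brainstem.

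Between the 2 brain regions, 3 genes stood lower in cerebellum than in brainstem, with no overlap among the 8 arrays of each. Their leading probe sets lay above the array median in both regions. Ass1 differed by -2.23 ± 0.07 on the log2 scale (SE, adjusted p = 3.16e-18, limma), with cerebellar values little above the array median. Slc25a15 differed by -1.12 ± 0.09 (adjusted p = 5.8e-11) and Asl by -0.37 ± 0.07 (adjusted p = 8.19e-05). The exact permutation test over 8 and 8 arrays gave p = 0.000155 for all 3, the smallest value that it allows. Arrays of the same genotype and number deviated together in cerebellum and brainstem, with r from 0.22 to 0.38 in 8 of 8 pairs. Taken as 8 pairs, the exact test that flips the signs of the paired differences gave p = 0.00781 for each of the 3, again its smallest value. All 3 genes were lower in cerebellum in 8 of 8 pairs.

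In all, 4 of the 10 probe sets were called lower and 1 higher in cerebellum than in brainstem, against 35.0% lower and 23.3% higher among all probe sets, shares that do not set the members apart. The other 2 calls came from dim values: the second Otc probe set differed by -0.29 ± 0.08 (SE, adjusted p = 0.00279) and Arg1 by 0.45 ± 0.09 (adjusted p = 0.000237, limma), and in both the regions overlapped. The call of the second Otc probe set was lost among CAG42 mice alone (adjusted p = 0.0818). The second probe sets of Ass1 and Slc25a15, dim in both regions, differed by 0.09 (95% interval -0.30 to 0.49) and 0.07 (-0.23 to 0.37), so that the regional contrast of these genes rests on 1 probe set each.

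The effect of the Knock-In was then asked in each tissue as CAG42 minus WT. In liver, 0 of the 10 probe sets were called, against 0.147% of all probe sets, and 0 had an unadjusted p under 0.05, where 3876 of all 45037 did. Of the 10 differences 8 lay below 0, with a median of -0.09 and a range from -0.19 to 0.14, while the median of all probe sets was -0.01. The lowest adjusted p was 0.711 (limma), and the genotypes overlapped in 10 of 10 probe sets, where 2.76% of all probe sets had groups apart.

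Otc had 11.75, 11.80, 11.77 and 11.88 in the 4 CAG42 livers, against 12.06, 12.00, 11.77 and 11.89 in the 4 WT livers. The means were 11.80 ± 0.05 in CAG42 and 11.93 ± 0.13 in WT (SD, n = 4 each), a difference of -0.13 with a 95% interval from -0.29 to 0.04. WT livers 1, 2 and 4 were above every CAG42 liver, and WT liver 3 lay within the CAG42 range.

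Ass1 had 12.25, 12.21, 12.17 and 11.92 in CAG42 livers, against 12.49, 12.40, 12.07 and 12.12 in WT livers. Its difference was -0.13 (95% interval -0.34 to 0.07), and the groups overlapped, with the lowest value in a CAG42 mouse and the 2 highest in WT mice. Slc25a15 had 10.76, 10.59, 10.55 and 10.32 in CAG42 livers, against 10.81, 10.85, 10.62 and 10.47 in WT livers, with a difference of -0.13 (-0.38 to 0.12). The same CAG42 mouse, replicate 4, was lowest in both genes.

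Asl, which follows Ass1 in the cycle, had 11.52, 11.54, 11.48 and 11.12 in CAG42 livers, against 11.68, 11.53, 11.41 and 11.26 in WT livers. The difference was -0.06 (-0.26 to 0.15), with CAG42 replicate 4 below all WT livers and the other 3 CAG42 values within the WT range. Arg1 had 12.77, 12.74, 12.77 and 12.72 in CAG42 livers, against 12.91, 12.85, 12.72 and 12.65 in WT livers, and differed by -0.03 (-0.31 to 0.25). Its 4 CAG42 values lay within the span of the WT values.

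Cps1 had 12.78, 12.84, 12.86 and 12.72 in CAG42 livers, against 12.84, 12.98, 12.72 and 12.80 in WT livers. Nags had 8.52, 8.56, 8.66 and 8.50 in CAG42 livers, against 8.64, 8.65, 8.42 and 8.47 in WT livers. The entry of the cycle thus showed overlapping genotypes, with differences of -0.04 (-0.39 to 0.32) for Cps1 and 0.01 (-0.17 to 0.20) for Nags.

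Second probe sets varied more in liver: that of Ass1 differed by 0.14 (95% interval -0.41 to 0.70) with SDs of 0.53 in CAG42 and 0.82 in WT mice, and that of Slc25a15 by -0.19 (-0.61 to 0.23) with SDs of 0.32 in CAG42 and 0.65 in WT mice. The second probe set of Otc differed by -0.14 (-0.37 to 0.09). A missed call does not show equal levels. For the 7 leading probe sets the intervals in liver reach no lower than -0.39 and no higher than 0.32, both for Cps1. Larger shifts lay outside the 95% intervals of this model. The error of the model is pooled over the arrays of all tissues, so the intervals do not measure the spread among livers alone. For Cps1 the SDs were 0.07 in CAG42 and 0.11 in WT livers, against 0.27 in CAG42 and 0.46 in WT cerebella. For Asl they were 0.20 in CAG42 and 0.18 in WT livers, against 0.05 in CAG42 and 0.13 in WT cerebella.

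**Figure D3:**
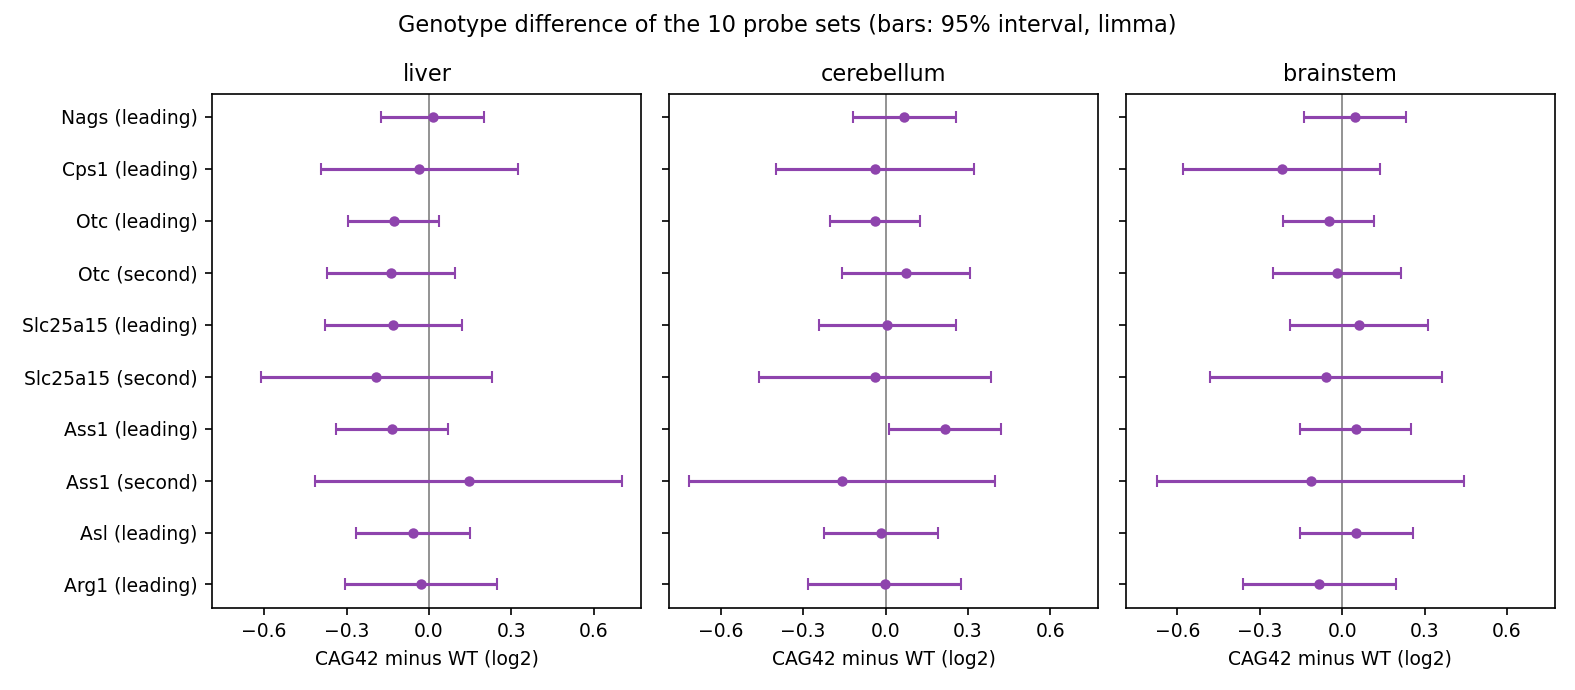
CAG42 minus WT on the log2 scale (horizontal axis) for the 10 probe sets in liver, cerebellum and brainstem, with 4 and 4 mice each. The 95% intervals are from limma, with the error pooled over the arrays of all tissues. Every interval in liver and brainstem includes 0, and in cerebellum that of the leading Ass1 probe set, 0.01 to 0.42, is the exception.

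In cerebellum 0 of 10 probe sets were called, against 0.0444% of all, with 4 differences above 0 and 6 below, a median of -0.01 and the groups overlapping in 10 of 10 (3.94% of all probe sets had groups apart). Ass1 was the 1 probe set with an unadjusted p under 0.05, where 1617 of all probe sets had one. Its leading probe set had 5.05, 5.18, 5.08 and 5.04 in CAG42 cerebella, against 4.92, 5.06, 4.81 and 4.70 in WT cerebella. Of the WT mice 3 lay below all CAG42 mice, and WT replicate 2 lay within the CAG42 range.

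The Ass1 difference in cerebellum was 0.22 ± 0.10 (SE, 95% interval 0.01 to 0.42), with an adjusted p of 1.00 (limma) and an exact permutation p of 0.0857, two-sided, where 0.0286 is the smallest that 4 against 4 mice allow. The second Ass1 probe set, dim in brain, differed by -0.16 (-0.72 to 0.40). Of 7 choroid plexus markers 6 had a difference above 0 in cerebellum as well, their mean level ranging from 6.46 to 7.07 in CAG42 and from 5.19 to 7.0 in WT mice. Of 4 erythrocyte markers 4 did, with mean levels from 8.35 to 8.85 in CAG42 and from 7.93 to 8.84 in WT mice. Neither count was particular to cerebellum. In brainstem 6 of 7 choroid plexus and 4 of 4 erythrocyte markers lay above 0, and in liver 2 of 7 and 4 of 4. The leading Ass1 probe set differed by 0.05 in brainstem and by -0.13 in liver. No gene of either list was called, and their part in the Ass1 value was not tested.

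The remaining brain values held no call. In cerebellum Slc25a15 averaged 6.16 ± 0.17 in CAG42 and 6.16 ± 0.18 in WT cerebella (n = 4 each, ± SD) and Asl 6.29 ± 0.05 in CAG42 and 6.30 ± 0.14 in WT mice. In brainstem 0 of 10 probe sets were called, against 0.0155% of all, with 4 differences above 0 and 6 below, a median of -0.03 and an overlap of the groups in 10 of 10 (3.70% of all had groups apart). Ass1 averaged 7.24 ± 0.05 in CAG42 and 7.19 ± 0.09 in WT brainstems, and Asl 6.69 ± 0.09 in CAG42 and 6.64 ± 0.10 in WT brainstems. The farthest from 0 was Cps1 at -0.22 (-0.58 to 0.14), a gene that is dim there. Among its 4 WT brainstems replicate 2 was at 3.97 and the others between 3.26 and 3.50, against 3.23 to 3.37 in CAG42 brainstems.

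Whether the Knock-In acted differently in the tissues was tested in the same model. None of the 10 probe sets was called for liver against cerebellum (0.00888% of all probe sets called), liver against brainstem (0.00888%) or cerebellum against brainstem (0.00222%). The 1 unadjusted p under 0.05 was again that of the leading Ass1 probe set, for liver against cerebellum, where 3.98% of all probe sets had one. Its genotype difference was lower in liver than in cerebellum by 0.35 on the log2 scale (-0.35 ± 0.14, SE, interval -0.64 to -0.06, unadjusted p = 0.0195 and adjusted p = 1.00, limma). The second Ass1 probe set, dim in brain, went the other way, at 0.30 (-0.49 to 1.09).

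Among the livers, the members shared a pattern across single mice that did not follow genotype and that was also seen in genes of amino acid breakdown. WT replicates 1 and 2 were above the WT mean in 7 of 7 leading probe sets, and WT replicates 3 and 4 were below it in 7 of 7. The mean over the 7 genes was 11.48, 11.47, 11.47 and 11.31 in CAG42 livers 1 to 4, and 11.63, 11.61, 11.39 and 11.38 in WT livers 1 to 4. Both high WT values and both low ones lay outside the span of CAG42 livers 1 to 3, and CAG42 replicate 4 was the lowest of all 8.

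The split of WT livers 1 and 2 from WT livers 3 and 4 was read off these values, so it is a description, and it was not particular to the cycle. WT livers 1 and 2 exceeded WT livers 3 and 4 in 8 of the 10 member probe sets and in 16 of 20 genes of amino acid breakdown, against 28.6% of all probe sets. The amino acid breakdown genes had mean levels of 11.47, 11.41, 11.21 and 11.20 in WT livers 1 to 4. Mean levels in WT livers 1 to 4 were 10.16, 9.97, 9.56 and 9.62 for periportal genes and 9.37, 8.99, 8.81 and 8.87 for perivenous genes. For glutamine handling they were 7.26, 7.26, 7.06 and 7.16. These means were also higher in WT livers 1 and 2. Gene by gene, the order held in 3 of 10 periportal and 7 of 23 glutamine handling genes, near the share of all probe sets. It held in 9 of 18 perivenous genes. Among probe sets at least as bright in liver as the dimmest leading one, 38.0% had it.

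The CAG42 replicate 4 was lowest of its group in 6 of 7 leading probe sets, Otc being the exception, where it was highest. Its shortfall lay in Ass1, Asl and Slc25a15. The same liver stood apart in markers of other cells: the mean of 9 Kupffer cell and macrophage markers was 8.82, against 7.34 to 7.73 in the other CAG42 livers and 7.45 to 8.23 in WT livers. The mean of 6 neutrophil markers was 5.60, against 4.38 to 4.51 in the other CAG42 livers and 4.16 to 4.71 in WT livers. Other lists differed there as well. The mean of 9 hepatocyte markers was 12.55, against 12.35 to 12.46 in the other CAG42 and 12.38 to 12.45 in WT livers. That of 10 periportal genes outside the members was 10.24, against 9.67 to 9.75 in the other CAG42 and 9.56 to 10.16 in WT livers. Endothelial and stellate markers (6.56) and erythrocyte markers (8.45) had their lowest CAG42 means there. The part of any of these lists in the low values was not tested. Array medians were 4.19, 4.16, 4.16 and 4.15 in CAG42 livers and 4.13, 4.19, 4.25 and 4.23 in WT livers, and their part in the pattern was not tested.

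With genotype means taken off, all 21 pairs of the 7 genes had a correlation above 0 over the 8 liver arrays, with a median r of 0.64. The highest were Ass1 with Asl at 0.91, Slc25a15 with Asl at 0.89, Slc25a15 with Ass1 at 0.89, Ass1 with Arg1 at 0.85 and Nags with Cps1 at 0.85. Otc was the least tied, at 0.16 with Asl and 0.17 with Slc25a15. These values describe 8 arrays that share normalization and, in WT, the array that stood apart.

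**Figure D4:**
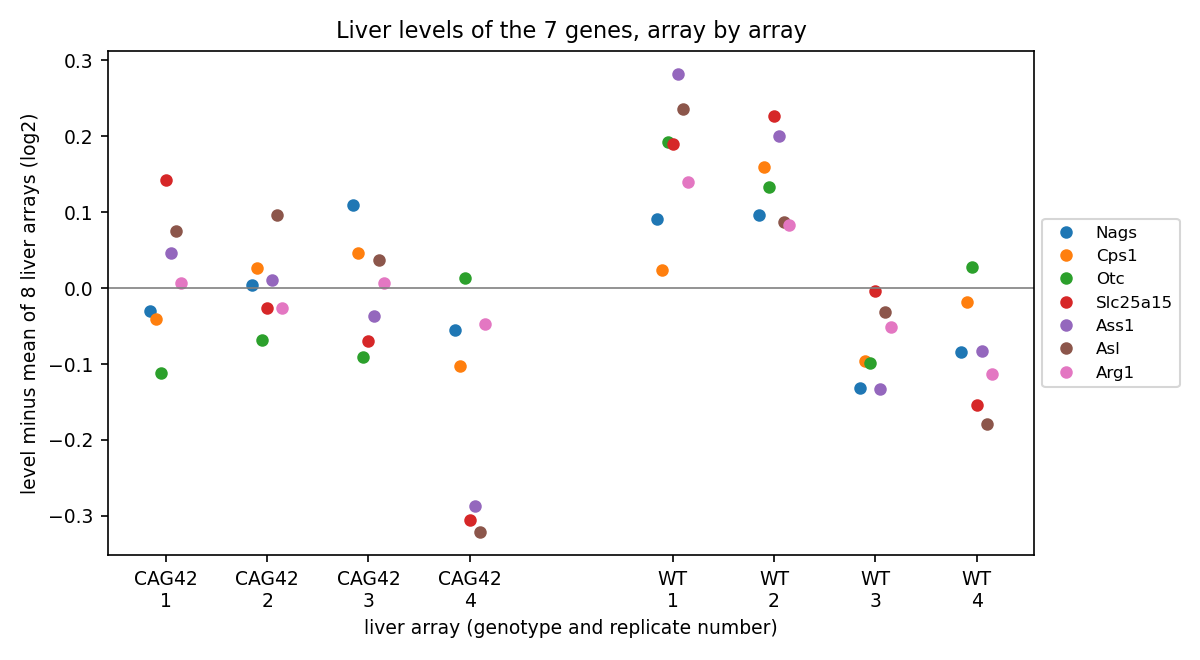
Level of each of the 7 leading probe sets minus its mean over the 8 liver arrays (vertical axis, log2) for CAG42 livers 1 to 4 and WT livers 1 to 4. The points of WT 1 and WT 2 lie above 0, most of those of WT 3 and WT 4 below it, and Ass1, Asl and Slc25a15 are lowest in CAG42 replicate 4.

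The spread among the mice was smaller in CAG42 than in WT livers for 8 of the 10 probe sets, with median SDs of 0.12 in CAG42 and 0.18 in WT livers. Over all probe sets the CAG42 SD was the smaller one in 70.3%, with medians of 0.15 in CAG42 and 0.22 in WT livers, so the members did not stand out. Female-biased liver genes, of which 4 were measured, had a mean level from 9.61 to 10.96 in CAG42 livers and of 7.23, 10.43, 6.69 and 11.03 in WT livers 1 to 4. Male-biased liver genes, of which 6 were measured, had a mean level from 4.05 to 4.34 in CAG42 livers. In WT livers 1 to 4 it was 4.37, 4.21, 4.29 and 4.64. The part of either list in the liver values was not tested.

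Of the genes around the cycle, 0 were called between the genotypes in any of the 3 tissues over the 6 lists of transport and side branches, glutamine and ammonia handling, regulators, amino acid breakdown, periportal and perivenous hepatocyte genes. In liver, 3 of 19 genes of transport and side branches had an unadjusted p under 0.05, where 8.61% of all probe sets did, with a list median of -0.02. Nos3, the endothelial nitric oxide synthase, whose substrate is arginine, had 6.03, 6.21, 6.15 and 6.10 in CAG42 livers, against 5.79, 5.93, 5.83 and 5.72 in WT livers, a difference of 0.31 ± 0.13 (SE, adjusted p = 0.521, limma). Oat, which turns ornithine into glutamate semialdehyde, had 11.81, 11.73, 11.89 and 10.56 in CAG42 livers, against 12.32, 12.30, 11.44 and 11.83 in WT livers (-0.48 ± 0.21, adjusted p = 0.524). Nos3 was the 1 of the 12 genes named from these lists in liver whose genotypes did not overlap. The 12 were picked by lowest p, which favours groups apart, so the 2.76% of all probe sets is no measure for them. Of 9 endothelial and stellate markers 6 also lay above 0, with a median of 0.14, Lyve1 at 0.46 and Clec4g at 0.41. The other 3 lay below 0, down to -0.32, with Col1a1 at 4.75 in CAG42 and 5.07 in WT livers. Pecam1 averaged 5.24 in CAG42 and 5.19 in WT livers. The mean level of the 9 markers ranged from 6.56 to 6.93 in CAG42 and from 6.40 to 6.90 in WT livers. None was called, and their part in the Nos3 value was not tested. Oat was lowest in CAG42 replicate 4, as the leading probe sets of Ass1, Asl and Slc25a15 were, while the second Ass1 probe set, at 7.92 there, was lower in CAG42 replicates 2 and 3.

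Of the 23 genes of glutamine, glutamate and ammonia handling 18 lay below 0 in liver, with a median of -0.10 and 7 at an unadjusted p under 0.05, against 8.61% of all probe sets. The mean level of the list was between 7.02 and 7.13 in CAG42 livers, a range that holds WT liver 3 at 7.06, while WT livers 1 and 2 at 7.26 and WT liver 4 at 7.16 lay above it. Asns, the asparagine synthetase, which takes its nitrogen from glutamine, had 4.09, 4.38, 4.35 and 3.71 in CAG42 livers, against 6.30, 6.48, 5.38 and 3.91 in WT livers. WT replicate 4 lay within the CAG42 range and the other 3 WT mice above it, and the difference was -1.39 ± 0.33 (SE, adjusted p = 0.107, limma). Slc1a5, a glutamine carrier, had 4.89, 5.69, 5.32 and 4.43 in CAG42 livers, against 3.80, 4.70, 4.35 and 4.83 in WT livers (0.66 ± 0.21, adjusted p = 0.306).

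Among the 13 regulators 8 lay above 0, with a median of 0.12. The liver transcription factors Onecut1 and Prox1 had the lowest p, with 0.63 ± 0.18 (SE, adjusted p = 0.205) and 0.56 ± 0.18 (adjusted p = 0.316, limma). Onecut1 had 8.63, 8.11, 8.77 and 8.83 in CAG42 livers, against 8.17, 7.94, 8.31 and 7.43 in WT livers, with the groups overlapping. Of 20 genes of amino acid breakdown, which feed the cycle with nitrogen, 18 lay below 0 with a median of -0.11 and 3 at an unadjusted p under 0.05 (8.61% of all probe sets). Cth (cystathionine gamma-lyase) at -0.38 ± 0.15 (SE, adjusted p = 0.472) and Aass (of lysine breakdown) at -0.25 ± 0.10 (adjusted p = 0.480, limma) had the lowest p. The mean levels of the list in WT livers 3 and 4, 11.21 and 11.20, lay within the CAG42 range of 11.13 to 11.30. Those of WT livers 1 and 2, 11.47 and 11.41, lay above it, replicate 1 being the array that stood apart. The part of single WT livers in the shift of the list was not tested.

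With the members left out, hepatocyte zones gave no shared direction. Of 10 other measured periportal genes 5 lay above 0 and 5 below (median -0.01). Among these, Cyp8b1, a bile acid hydroxylase, was at 0.78 ± 0.32 (SE, adjusted p = 0.493, limma) and Hsd17b13 at 0.14 ± 0.08 (adjusted p = 0.653). The periportal list also holds the members Ass1, Asl, Cps1 and Arg1, all below 0 (-0.13, -0.06, -0.04 and -0.03). Of 18 perivenous genes 11 lay above 0 and 7 below (median 0.01), with the aryl hydrocarbon receptor Ahr at 0.38 ± 0.14 (adjusted p = 0.413) and the glutamate carrier Slc1a2 at -0.59 ± 0.23 (adjusted p = 0.465). The 9 hepatocyte markers had a median of 0.01 and none called.

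**Figure D5:**
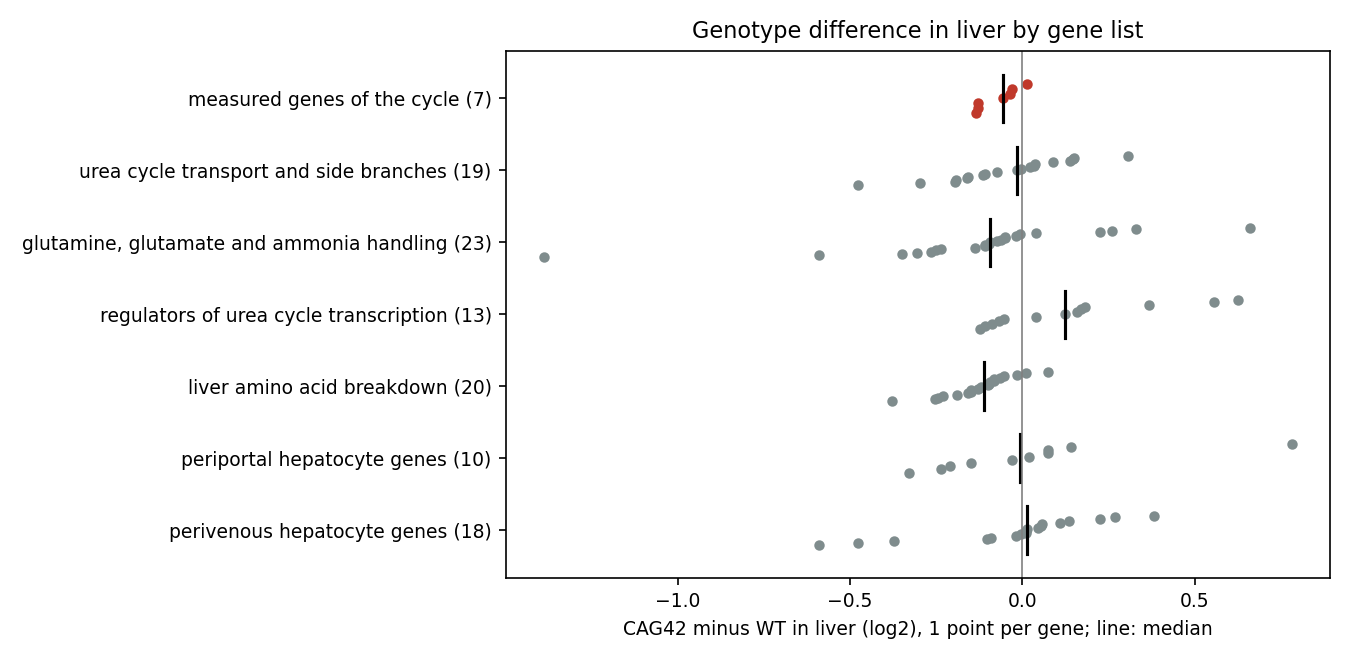
CAG42 minus WT in liver on the log2 scale (horizontal axis), 1 point per gene and a line at the median, for the 7 measured genes of the cycle and 6 lists of related genes, with the number of genes in parentheses. The cycle genes lie between -0.13 and 0.01, and the widest span is that of glutamine, glutamate and ammonia handling, from -1.39 for Asns to 0.66 for Slc1a5.

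In the brain regions the same lists held dim liver genes or small differences. In cerebellum the genes of lowest p were Slc14a1 (urea transporter, -0.24) and Nos3 (0.28), Gad1 (-0.15) and Gad2 (-0.18), Hnf4a (0.15) and Foxa2 (0.10), Gnmt (0.34) and Agxt (-0.25), Pck1 (-0.17) and Hal (0.19), and Cldn2 (0.51) and Rnf43 (0.23), all with an adjusted p of 1.00 (limma). In brainstem they were Arg2 (mitochondrial arginase, -0.28) and Nos1 (0.20), Slc38a5 (0.37) and Slc7a8 (-0.27), Cebpa (-0.18) and Hnf4a (0.12), Tat (-0.31) and Uroc1 (0.13), Hsd17b13 (-0.11) and Aldh1b1 (-0.23), and Cyp1a2 (-0.16) and Rgn (0.14), again with an adjusted p of 1.00. In both regions no gene of these lists was called.

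Genes with the pattern most like that of each member were sought among 10690 genes with a mean above the median, by Pearson's r over the 24 arrays. Nags was closest to Fbp1, Mst1 and Apoc3 (r = 0.999 each), Cps1 to Apon, Hsd17b13 and Mettl7b (r = 0.999 each), Otc to Akr1c6, Cyp3a25 and F2 (r = 1.00 each after rounding), and Arg1 to Cyp2a12, Hgd and Slc17a2 (r = 0.999 each). Asl was closest to Rgn, Ugt2a3 and Ahcy, and Slc25a15 to Acat3, Igf1 and Mfsd4b1. Ass1 was closest to Slc25a13 (r = 0.998), Car3 and Foxa2. Such values mainly restate the gap between liver and brain that all of these genes share.

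Slc25a13 is citrin, the mitochondrial carrier that exports the aspartate which ASS1 uses. It stood at 10.37 in liver, 4.70 in cerebellum and 6.42 in brainstem on average. It was picked by its r with Ass1 over these arrays, so a shared order of the 3 tissues follows from the choice. Asl and the leading probe set of Slc25a15 had the same order. Within liver, over 8 arrays with genotype means taken off and 10529 genes, Nags was closest to Nr1d2, Rmdn1 and Nufip2, Cps1 to Septin4, Sult1c2 and Smad6, Otc to Csn2, Zbtb4 and Cers5, Slc25a15 to 1190007I07Rik, Slc13a2 and Gsta4, Ass1 to Ndrg1, Mrpl48 and Ncald, Asl to Coq10b, Mfsd2a and Mtfr1, and Arg1 to Kansl3, Pwwp2a and Fbxo21, with r from 0.936 to 0.997. With 8 arrays and so many genes, such values are a description only.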

How the data were processed

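Transcript levels of liver, cerebellum and brainstem were measured on 24 arrays. The authors scanned the arrays and normalized them with RMA, and the deposited values are on the log2 scale; R 2.7.0 is named in the processing notes of the submitters. RMA normalizes the arrays to each other, so that a shift of all transcripts could be hidden. The values used here were still not of one distribution, with array medians from 4.13 in WT liver to 4.62 in WT brainstem. Labels and methods differ on the amount of RNA and on the labelling kit. No detection calls or scan dates were used here, so that no batch could be tested, and the number of arrays limits the precision.

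Of 45141 probe sets 104 controls were left out. The platform annotation, its symbols updated with the RefSeq gene table of GRCm38.p6, gave 28898 probe sets 1 gene, 551 several and 15588 none. It is not complete, and a gene that it does not list was not analysed here. limma 3.58.1 in R 4.3.3 fitted 6 group means to the 24 arrays with an empirical Bayes step, and Benjamini-Hochberg correction ran over 45037 probe sets in each comparison. Exact permutation tests, two-sided, compared 4 with 4 or 8 with 8 arrays. The procedure was tested on simulated data. Plots used matplotlib 3.10.9 under Python 3.11.15.

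The members and gene lists were chosen with earlier results of these data known. The text names all member probe sets, from each of 6 related lists the called genes or else the 2 of lowest p, and per member the 3 genes of highest r. The albumin values were added to check the labels, and the individual Slc25a13 levels after its likeness to Ass1 was seen.

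Alternative settings were separate fits per tissue, a replicate block, a random block, array weights, quantile normalization within tissue, a floor on dim probe sets (log2 value above 5 on at least 4 arrays), 1 probe set per gene, a trended and robust prior, an F statistic over the tissues, centring on array medians, each genotype alone and leaving out each array. The numbers did not pair the genotypes: of 12 pairs with the same tissue and number 2 correlated above 0.1 in their deviations from the group means. Across tissues of the same genotype 19 of 24 did: 8 of 8 pairs of cerebellum and brainstem (r from 0.22 to 0.38), 6 of 8 of liver and cerebellum and 5 of 8 of liver and brainstem. The cerebellum and brainstem arrays were therefore also tested as pairs, with a replicate block and an exact test that flips the signs of 8 paired differences.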

Additional observations from a re-analysis of the deposited data

Results flagged for a closer look

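In 5 of the 60 groups of 4 arrays made by the 10 probe sets, 1 array lay far from the other 3 by the gap over the whole range of the group. Chance flags about 1 in 20 groups. One of them was in a bright signal: Asl in liver of CAG42 replicate 4 was at 11.12, where the other 3 CAG42 livers lay between 11.48 and 11.54. On the same array the mean of the Kupffer cell and macrophage markers was 8.82, against 7.34 to 7.73 in the other CAG42 livers. That of the neutrophil markers was 5.60, against 4.38 to 4.51. The hepatocyte marker mean was 12.55, against 12.35 to 12.46, and that of endothelial and stellate markers 6.56, against 6.72 to 6.93. The part of these lists in the Asl value was not tested. The other 4 flagged groups were of dim brain values. In WT brainstem replicate 3, Nags was low at 2.91 and Arg1 was low at 3.11, both on the same array. The second probe set of Slc25a15 was high at 3.49 in WT cerebellum replicate 1, and the second probe set of Ass1 was high at 3.60 in CAG42 cerebellum replicate 1.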

How the results depend on the processing

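The count of called member probe sets stayed at 0 for CAG42 minus WT in each tissue and for the differences of that effect between tissues, under every alternative run. It stayed at 10 for liver against each brain region, or 7 of 7 with 1 probe set per gene, and between 4 and 6 for cerebellum against brainstem. Single calls moved in 3 cases: Nags became lower in cerebellum than in brainstem without WT brainstem replicate 3 (adjusted p = 0.0345), the leading Otc probe set became higher when arrays were centred on their medians (adjusted p = 0.0343), and the second Otc probe set lost its call in CAG42 mice alone (adjusted p = 0.0818). The replicate block within a tissue called 0 member probe sets in liver, cerebellum and brainstem; over all probe sets it called 0, 0 and 4, against 66, 20 and 7. A replicate block across tissues, by genotype and number, kept the tissue counts at 10, 10 and 5 member probe sets, as a random block and as a fixed block, the fixed one chosen after seeing the data. Over all probe sets the liver count was 0 with the liver arrays alone, 231 with array weights and 35 to 2878 when single arrays were left out, the highest without WT replicate 1. With the liver arrays alone less that array, an alternative chosen after seeing the data, it was 1. The cerebellum count was 32 and the brainstem count 25 with array weights, 7 and 1 with 1 probe set per gene, and 51 with the F statistic. The background shares for liver thus depend on that array and on the pooled spread, while the member counts do not. The causes were not tested. Low brain levels of Nags, Cps1, Otc and Arg1 are limited by background, which has no measure here.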
